A study of Homo sapiens with 6 samples.

Results

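This report describes 28 genes of cholesterol synthesis and of its control by sterol regulatory element binding proteins (SREBPs) in NCI-H295R cells with lowered TPD52. The members were set by name along the pathway, by a rule that uses no measured value, though with earlier results of these data known. They are 19 enzymes from acetyl-CoA to cholesterol, 7 genes that form, hold or cleave the SREBPs, and 2 further sterol-regulated genes. All 28 were found among the 34869 genes of the deposited table. They do not cover every step of the pathway, and steps without a member are not analysed here.

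NCI-H295R is an established adrenocortical carcinoma line that makes adrenal steroids. The control group, shCtrl, carried a lentivirus with an shRNA that targets no gene, and the knockdown group, shTPD52, a lentivirus with an shRNA to TPD52. Both groups were grown in the same serum-containing DMEM/F12 medium with insulin, transferrin and selenium, and each gave 3 paired-end RNA libraries. No label says how many shRNA sequences were used, whether the virus pool or a clone was kept, or whether replicates came from different cultures. The p-values therefore reflect only how far these libraries spread, which may be technical.

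Cells build cholesterol from acetyl-CoA by way of mevalonate, isoprenoid diphosphates, squalene and lanosterol. When sterols are low, SCAP carries the SREBP precursors from the endoplasmic reticulum to the Golgi, where the site-1 and site-2 proteases release the active factor. When sterols are high, INSIG proteins hold SCAP back. The adrenal cortex uses the product as the substrate of all its steroid hormones, and takes up much of it from lipoproteins.

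Levels are FPKM, reads scaled by the length of the gene and the depth of the library, as the authors computed them. The depth worked back from these values ran from 29544346 to 38396735 reads per library, and 3 reads of a 2 kb gene are worth 0.0391 to 0.0508 FPKM, which covers counting error only. Given throughout in the order of replicates 1, 2 and 3, TPD52 measured 1.42, 1.18 and 1.29 FPKM in shCtrl and 0.63, 0.635 and 0.655 FPKM in shTPD52, so the groups did not overlap. TPD52 fell by 0.65 in log2 units (SE 0.14, adjusted p = 0.0218 by limma), and the call held in 7 of 14 alternatives. In bulk libraries fewer cells of a type and less RNA per cell cannot be told apart. All 8 markers of steroidogenic adrenocortical cells averaged at least 1 FPKM, and their summed level was 449.1 to 471.5 FPKM in shCtrl and 488 to 503 FPKM in shTPD52. Single markers of this list moved in both directions, so the sum does not describe each of them. Of 6 fibroblast markers only COL3A1 averaged at least 1 FPKM (18.6 to 23.8 FPKM), with DCN, LUM and PDGFRB under 0.15 FPKM in every library, and the sum of the list was 23.2 to 24.9 FPKM in shCtrl and 19.3 to 24.5 FPKM in shTPD52. None of 6 endothelial markers averaged that much, and PTPRC, the pan-leukocyte marker, was under 0.05 FPKM in every library. None of the 3 of 6 chromaffin cell markers that were measured averaged 1 FPKM, and their sum was 0.306 to 0.586 FPKM in shCtrl and 0.568 to 1.23 FPKM in shTPD52. Mitochondrially encoded genes took 18.4% ± 0.53 (SD, n = 3) of recovered reads in shCtrl and 22.7% ± 2.39 (n = 3) in shTPD52, and shTPD52 replicate 2, at 20.2%, lay closest to the controls. Their part in the results below was not tested, beyond the rescaling to non-mitochondrial reads given further on.

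A gene was tested where its mean over the 6 libraries was at least 1 FPKM, by limma (a linear model with moderated variances, two-sided) on log2(FPKM + 0.5), a scale that understates the change of low genes, with p-values adjusted by Benjamini-Hochberg across the 12782 genes tested. A call means an adjusted p under 0.05. Of the 26 members tested, 3 rose, 1 fell and 22 did not pass. Among all genes tested 5.63% were called higher and 12.7% lower. The risers were PMVK and IDI1, which act between mevalonate and the isoprenoid diphosphates, and EBP, which acts near the end of cholesterol formation. LSS, the enzyme that closes squalene epoxide into lanosterol, fell. No SREBP gene, and neither SCAP, the INSIG genes nor the protease genes, passed. GGPS1 and CYP51A1 lie under the filter, and their tests come from a fit of 12785 genes in which both were added together with TPD52, added for the 2 members once the data had been looked at. There CYP51A1 fell and GGPS1 did not pass.

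**Figure D1:**
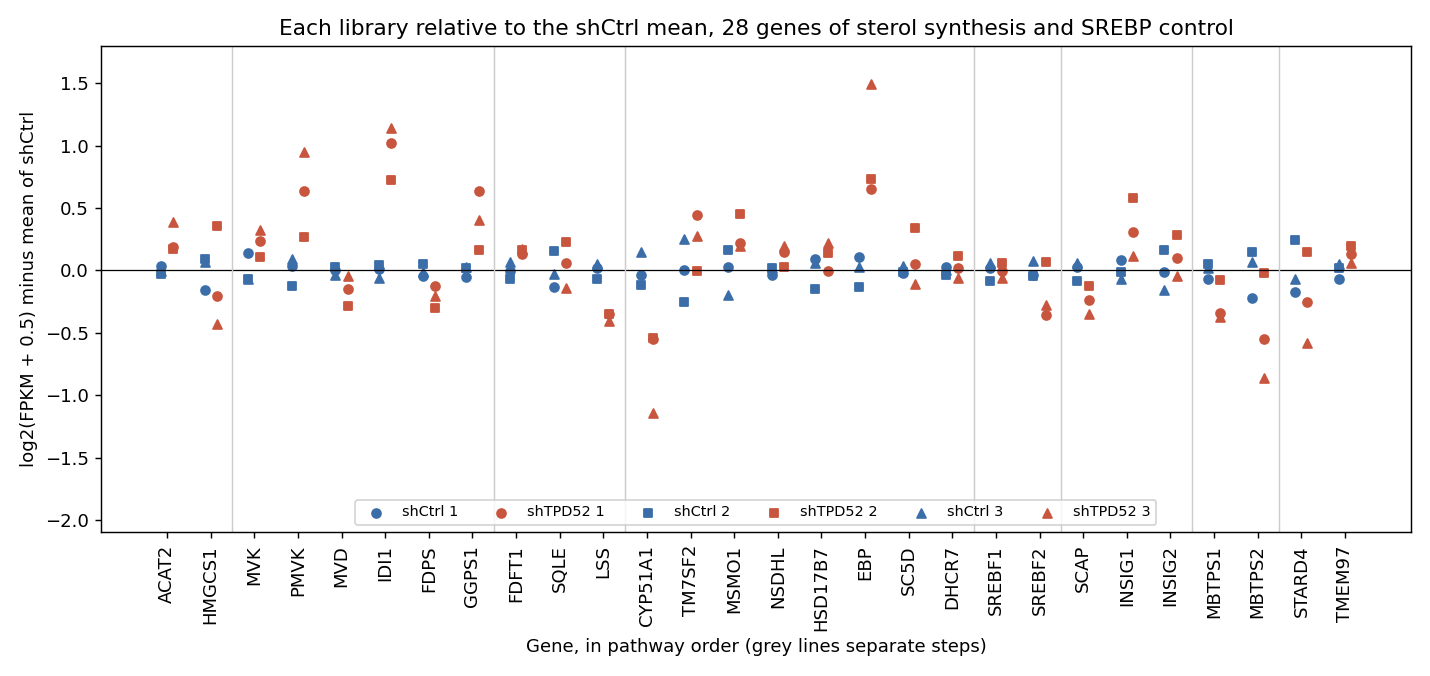
Each point is 1 library's log2(FPKM + 0.5) minus the mean of the 3 shCtrl libraries (vertical axis) for 28 genes in pathway order (horizontal axis), blue for shCtrl and red for shTPD52, with circles, squares and triangles for replicates 1, 2 and 3. All red points of PMVK, IDI1 and EBP lie above the blue ones and all red points of LSS and CYP51A1 below them.

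The median log2 fold change was 0.11 over the 26 tested members and -0.11 over all genes tested. The 3 shTPD52 libraries lay above all 3 shCtrl libraries for 10 of the 28 members and below them for 6. Among the 26 tested it was 9 above and 5 below (34.6% and 19.2%), beside 13.8% above and 28.3% below for all genes tested. By step, the groups were separated in 12 of the 19 enzymes, 8 upward and 4 downward, and in 3 of the 7 SREBP control genes, INSIG1 upward and SCAP and MBTPS1 downward. For that choice of members these shares are a description.

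At the head of the pathway, ACAT2, the cytosolic thiolase that joins 2 acetyl-CoA molecules, stood at 10.1, 9.66 and 9.87 FPKM in shCtrl and at 11.4, 11.2 and 13.1 FPKM in shTPD52. Every knockdown library was above every control, but the difference did not pass (log2 fold change 0.25, SE 0.090, adjusted p = 0.0834 by limma). In GENCODE release 29, 33.9% of its exon bases also belong to SOD2-OT1, 26.5% to SOD2 and 9.23% to TCP1, all on the opposite strand. The strand setting of the counting is not given in the sources used here. Opposite-strand genes also cover exon bases of other members, among them FDPS (18.6%), HMGCS1 (15%) and IDI1 (14.8%). HMGCS1, which makes HMG-CoA and is a standard readout of SREBP activity, was 7.92, 9.51 and 9.37 FPKM in shCtrl and 7.66, 11.6 and 6.49 FPKM in shTPD52. Its groups overlapped, because replicate 2 of shTPD52 was the highest of the 6 libraries and replicate 3 the lowest. The log2 fold change was -0.092 (95% confidence interval -0.54 to 0.35, adjusted p = 0.75 by limma), and the sign flips under median-ratio or quantile scaling and when shTPD52 replicate 3 is left out. That interval does not show equal levels.

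The next enzymes turn mevalonate into isoprenoid diphosphates. PMVK (ENSG00000163344, GRCh38 chromosome 1, 154924734 to 154936991, minus strand), phosphomevalonate kinase, was 32.3, 29 and 33.6 FPKM in shCtrl and 49.4, 38.2 and 61.4 FPKM in shTPD52. The lowest knockdown library, replicate 2, was still above the highest control. PMVK rose by 0.62 in log2 units (SE 0.16, adjusted p = 0.0375 by limma), but lost its call when no filter was used and when any library but shTPD52 replicate 2 was left out (adjusted p up to 0.127 by limma). IDI1 (ENSG00000067064, GRCh38 chromosome 10, 1039152 to 1049170, minus strand) interconverts isopentenyl and dimethylallyl diphosphate. It stood at 7.97, 8.16 and 7.56 FPKM in shCtrl and at 16.6, 13.4 and 18 FPKM in shTPD52. The group means, 7.89 ± 0.306 and 16 ± 2.36 FPKM (SD, n = 3 each), differed 2.02-fold, and the groups were far apart. IDI1 had the smallest p of all members (log2 fold change 0.96, SE 0.12, adjusted p = 0.00639 by limma) and kept its call in all 15 alternatives tried, with adjusted p from 0.000965 to 0.0495.

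The other enzymes of this stretch, before and after the risers, did not pass. MVK, mevalonate kinase, was 2.21, 1.85 and 1.85 FPKM in shCtrl and 2.41, 2.15 and 2.58 FPKM in shTPD52 (log2 fold change 0.22, adjusted p = 0.213 by limma). MVD, which decarboxylates mevalonate diphosphate, averaged 6.71 ± 0.159 FPKM in shCtrl and 5.97 ± 0.544 in shTPD52, with a log2 fold change of -0.16 (adjusted p = 0.25 by limma) whose sign flips after the correction for length and GC content described below. FDPS, farnesyl diphosphate synthase, had 20.2 ± 0.709 and 17.4 ± 1.11 FPKM, and all its knockdown libraries were below the controls (log2 fold change -0.21, adjusted p = 0.102 by limma). Thus within this stretch the separated genes lay in both directions. Of the FDPS-like pseudogenes measured, none exceeded 0.205 FPKM. GGPS1, which makes geranylgeranyl diphosphate for protein prenylation, was low, at 0.482, 0.532 and 0.534 FPKM in shCtrl and 1.08, 0.64 and 0.848 FPKM in shTPD52, on about 62 to 124 reads per library. The groups did not overlap, but GGPS1 did not pass (log2 fold change 0.41, adjusted p = 0.127 by limma). A second gene of the same strand, ENSG00000285053, covers 37.3% of its exon bases and averaged 0.914 FPKM over the libraries, so the level of GGPS1 is uncertain.

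From squalene onwards the pathway is committed to sterols. FDFT1, squalene synthase, was 18.1, 17.3 and 19.1 FPKM in shCtrl and 19.9, 20.4 and 20.5 FPKM in shTPD52. These groups were separated by a small margin, and the difference did not pass (log2 fold change 0.16, adjusted p = 0.166 by limma). SQLE, squalene epoxidase, overlapped at 5.1 ± 0.579 and 5.31 ± 0.738 FPKM (n = 3 each), with a log2 fold change of 0.050 (adjusted p = 0.797 by limma) whose sign flips without shCtrl replicate 1 or shTPD52 replicate 2. LSS (ENSG00000160285, GRCh38 chromosome 21, 46188141 to 46228824, minus strand) was 20.6, 19.3 and 21 FPKM in shCtrl and 15.9, 15.8 and 15.2 FPKM in shTPD52. The knockdown values lay within a narrow band below the controls. LSS fell by 0.37 in log2 units (SE 0.076, adjusted p = 0.0214 by limma). By limma, LSS no longer passed under median-ratio scaling (-0.25, adjusted p = 0.0659) or once length and GC content were corrected for (-0.088, adjusted p = 0.292). It also failed when any library but shTPD52 replicate 2 was left out.

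Of the 8 enzymes that turn lanosterol into cholesterol, 1 of 7 tested rose and none fell. EBP (ENSG00000147155, GRCh38 chromosome X, 48521158 to 48528716, plus strand), the isomerase that moves a double bond of the sterol ring, was 22.4, 19 and 21.2 FPKM in shCtrl and 33.1, 35 and 59.8 FPKM in shTPD52. All 3 knockdown libraries were above the controls, and replicate 3 stood well above the other pair. The means of 20.9 ± 1.74 and 42.6 ± 14.9 FPKM (SD, n = 3 each) differed 2.04-fold. EBP rose by 0.96 in log2 units (SE 0.21, adjusted p = 0.0236 by limma). Without shTPD52 replicate 3 its log2 fold change was 0.69 and passed (adjusted p = 0.0193 by limma). The call ended without a filter, without any 1 shCtrl library and without shTPD52 replicate 1, with adjusted p up to 0.0951.

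CYP51A1, the lanosterol demethylase, stood at 0.959, 0.88 and 1.15 FPKM in shCtrl and at 0.518, 0.528 and 0.177 FPKM in shTPD52. Every knockdown library was lower, and replicate 3 was the lowest, on about 24 reads. CYP51A1 fell by 0.74 in log2 units (SE 0.21, adjusted p = 0.0449 by limma), and the call held in 4 of 14 alternatives. In GENCODE release 29 another gene of the same strand, ENSG00000285772, covers 79.4% of the exon bases of CYP51A1. No value under that identifier was found among the genes of the deposited table. How the counting assigned shared reads is not given in the sources used here, so the level of CYP51A1 is uncertain.

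The other enzymes of this stretch did not pass. MSMO1, the sterol C4-methyl oxidase, was 2.97, 3.3 and 2.46 FPKM in shCtrl and 3.44, 4.13 and 3.38 FPKM in shTPD52 (log2 fold change 0.29, adjusted p = 0.149 by limma). NSDHL, its dehydrogenase partner in demethylation, was 32.6 ± 0.777 and 35.5 ± 2.1 FPKM (log2 fold change 0.12, adjusted p = 0.269 by limma). In both the knockdown libraries lay above the controls. TM7SF2, a sterol C14 reductase, overlapped at 2.38 ± 0.503 and 2.89 ± 0.521 FPKM (adjusted p = 0.328 by limma). HSD17B7, the ketosteroid reductase of the C4 complex, overlapped at 2.52 ± 0.263 and 2.77 ± 0.255 FPKM (adjusted p = 0.484 by limma), and its copy HSD17B7P2 was measured at a mean of 3.15 FPKM, so reads may have been shared between them. SC5D, the C5 desaturase, and DHCR7, a sterol reductase, had log2 fold changes of 0.095 and 0.026 (adjusted p = 0.634 and 0.837 by limma). Both signs flip without shTPD52 replicate 2. For DHCR7 the 95% confidence interval ran from -0.17 to 0.22 on the log2 scale.

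**Figure D2:**
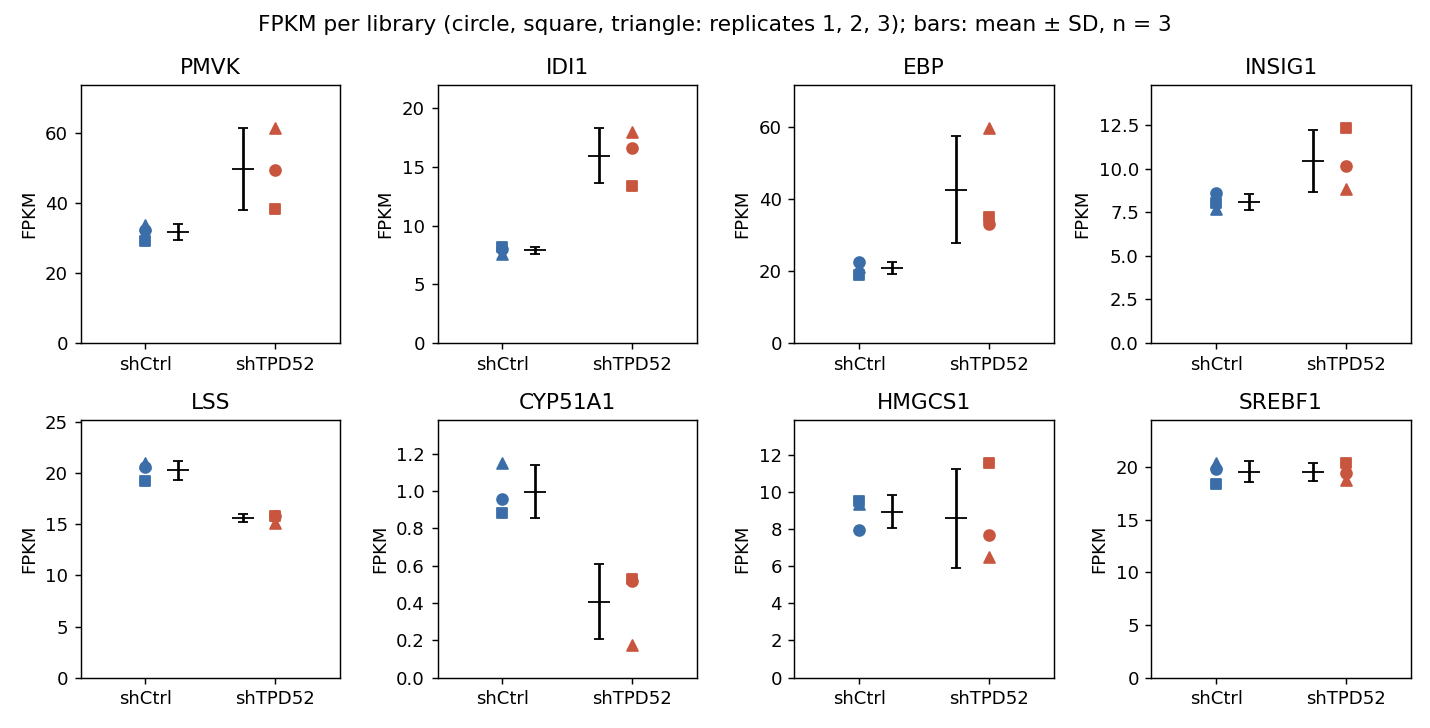
FPKM (vertical axis, from 0) of 8 genes in each shCtrl (blue) and shTPD52 (red) library, with circles, squares and triangles for replicates 1, 2 and 3 and black bars for the mean ± SD (n = 3). PMVK, IDI1, EBP and INSIG1 lie higher in every shTPD52 library, LSS and CYP51A1 lie lower, and HMGCS1 and SREBF1 overlap.

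The SREBP factors themselves showed overlapping groups. SREBF1, which encodes the forms best known for fatty acid genes, was 19.8, 18.4 and 20.3 FPKM in shCtrl and 19.5, 20.4 and 18.7 FPKM in shTPD52. Its log2 fold change was 0.0013 (95% confidence interval -0.18 to 0.19, adjusted p = 0.993 by limma). The sign flips without shCtrl replicate 2 or shTPD52 replicate 2, and after the length and GC correction SREBF1 passed as higher (0.32, adjusted p = 0.0164 by limma). SREBF2, the main driver of cholesterol enzymes, was 10.9, 10.8 and 11.8 FPKM in shCtrl and 8.61, 11.7 and 9.12 FPKM in shTPD52. Replicate 2 of the knockdown sat among the controls, with replicates 1 and 3 below them. SREBF2 did not pass (log2 fold change -0.19, adjusted p = 0.288 by limma). It passed as lower without shTPD52 replicate 2 (-0.31, adjusted p = 0.0151 by limma), and its sign flips after the length and GC correction.

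Among the genes that escort or retain SREBPs, INSIG1, itself a target of SREBPs, was 8.61, 8.02 and 7.69 FPKM in shCtrl and 10.2, 12.3 and 8.82 FPKM in shTPD52. The groups did not overlap, but replicate 3 exceeded the highest control only slightly. INSIG1 did not pass (log2 fold change 0.34, SE 0.13, adjusted p = 0.0932 by limma). It passed under each of the 4 alternatives that change the scaling or correct for length and GC (0.36 to 0.47, adjusted p from 0.0267 to 0.0459 by limma). INSIG2, its paralog, overlapped at 5.74 ± 0.701 and 6.27 ± 0.775 FPKM (adjusted p = 0.516 by limma). SCAP was 37.1, 34.2 and 37.8 FPKM in shCtrl and 30.8, 33.2 and 28.4 FPKM in shTPD52, so all knockdown libraries were lower. It did not pass (log2 fold change -0.24, adjusted p = 0.0879 by limma), and its sign flips after the length and GC correction.

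The 2 protease genes had the same sign. MBTPS1, the site-1 protease, was 14.8, 16.2 and 15.8 FPKM in shCtrl and 12.2, 14.8 and 11.9 FPKM in shTPD52 (log2 fold change -0.26, adjusted p = 0.0996 by limma), and its sign flips after the length and GC correction. MBTPS2, the site-2 protease, was 2.36, 3.2 and 2.99 FPKM in shCtrl and 1.78, 2.79 and 1.33 FPKM in shTPD52 (log2 fold change -0.48, adjusted p = 0.146 by limma). Replicate 2 of shTPD52 lay inside the control range for MBTPS2. Without that library MBTPS1 and MBTPS2 passed as lower (-0.36 and -0.70, adjusted p = 0.00731 and 0.011 by limma). YY2, a gene inside MBTPS2 on the same strand, covers 12.2% of its exon bases. YY2 was 1.292, 1.425 and 1.103 FPKM in shCtrl and 2.102, 2.11 and 2.147 FPKM in shTPD52. How the counting assigned reads shared by YY2 and MBTPS2 is not given in the sources used here.

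Neither of the 2 further sterol-regulated genes passed. STARD4, a carrier of cholesterol between membranes, overlapped at 7.3, 9.91 and 7.9 FPKM in shCtrl and 6.87, 9.25 and 5.38 FPKM in shTPD52 (log2 fold change -0.23, adjusted p = 0.398 by limma). TMEM97, also known as the sigma-2 receptor, was 34.7, 36.9 and 37.8 FPKM in shCtrl and 39.9, 41.8 and 38 FPKM in shTPD52. Its groups touched without overlapping (log2 fold change 0.13, adjusted p = 0.242 by limma).

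The promoters of these genes were read for letters tied to SREBP control. SREBPs bind sterol regulatory elements and usually act beside NF-Y, which binds CCAAT, and Sp1, which binds GC boxes. Entries for 25 of the 28 members were found in the RefSeq promoter table (GRCh38.p14), and the 250 bases before each start were searched on both strands. A gene was counted if any of its listed starts had a match. CCAAT was present in 18 of 25 members (72%), against 42.9% of 8785 tested coding genes and 32% of all promoters in the table. It was there in 14 of 16 enzymes and in 4 of the 9 other members. The 7 without it were PMVK, CYP51A1, SREBF1, SCAP, INSIG2, MBTPS1 and MBTPS2. The GC box GGGCGG was present in 22 of 25 members and in 76.1% of tested coding genes. The sterol element core TCACNCCAC was found only in SREBF2 of the 25, and in 1.18% of tested coding genes. None of the 3 letter strings contains another. A match is a description of letters and not a binding site. Only these exact patterns were searched in the 250 bases, so a missing match does not show that a gene lacks a sterol regulatory element.

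The stretches before the start are shown for IDI1, which rose in every alternative, LSS, which fell, and INSIG1, which passed only under the other scalings and the length and GC correction, leaving out bases that lie in an annotated exon. For EBP and SREBF2, whose stretch lies within annotated exons, 30 bases around 1 match are shown. Each is written 5′ to 3′ on the gene's strand, with CCAAT (or ATTGG, its reverse complement) and the sterol element in capitals. IDI1 covers chr10:1049171-1049369 (minus strand), LSS chr21:46228825-46229024 (minus), INSIG1 chr7:155297628-155297775 (plus), EBP chrX:48521726-48521755 (plus) and SREBF2 chr22:41832962-41832991 (plus).
IDI1: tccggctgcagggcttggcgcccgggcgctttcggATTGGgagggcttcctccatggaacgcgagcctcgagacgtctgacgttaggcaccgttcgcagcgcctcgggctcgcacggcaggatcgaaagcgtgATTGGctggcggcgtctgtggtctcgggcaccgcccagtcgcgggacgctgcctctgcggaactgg
LSS: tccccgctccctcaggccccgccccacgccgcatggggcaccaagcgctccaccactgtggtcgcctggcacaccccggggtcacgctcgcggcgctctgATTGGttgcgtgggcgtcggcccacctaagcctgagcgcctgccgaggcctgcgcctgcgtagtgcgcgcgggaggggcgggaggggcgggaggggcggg
INSIG1: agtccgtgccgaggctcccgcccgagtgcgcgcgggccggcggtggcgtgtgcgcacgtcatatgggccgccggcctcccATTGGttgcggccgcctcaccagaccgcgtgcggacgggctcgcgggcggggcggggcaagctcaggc
EBP: aagagagtgtctATTGGttgggagcggcac
SREBF2: tgacgcgccaTCACCCCACgcaccgcttcg
The riser IDI1 and the faller LSS both hold ATTGG, starting 215 and 117 bases before the IDI1 start and 150 bases before the LSS start. EBP holds it at 3 places, of which the one shown starts 70 bases before its start. PMVK, which rose, has no CCAAT in the stretch searched.

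The calls differed with how libraries were scaled. The median log2 fold change of all genes was -0.11 with deposited FPKM and 0.00054 with median-ratio scaling. Under that scaling 4 members were higher (PMVK, IDI1, EBP and INSIG1) and none lower, where 8.47% and 8.12% of all genes were called. Each library's trend on exon length and GC content was also removed by loess. After that correction 7 tested members were higher (those 4 with MVK, FDFT1 and SREBF1) and none lower, beside 10.1% and 10.4% of 12707 genes, and CYP51A1 in its own fit was lower (adjusted p = 0.0333 by limma). The tested members had a median exon length of 4524 bp and GC content of 49.9%, close to 4425 bp and 49.4% for all genes tested. Single members differed from that median. Of the tested members called with deposited FPKM, the risers PMVK, EBP and IDI1 had 1280, 2409 and 4345 bp and the faller LSS 7238 bp. The part of length in these changes was not tested beyond this correction. Rescaling to non-mitochondrial reads called 4 members higher and 1 lower, beside 7.64% and 9.49% of all genes. Quantile normalization called 6 higher and 1 lower, beside 9.01% and 9.29%. With no filter 1 of all 28 members was higher and 1 lower, beside 0.508% and 1.02% of 34869 genes.

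**Figure D3:**
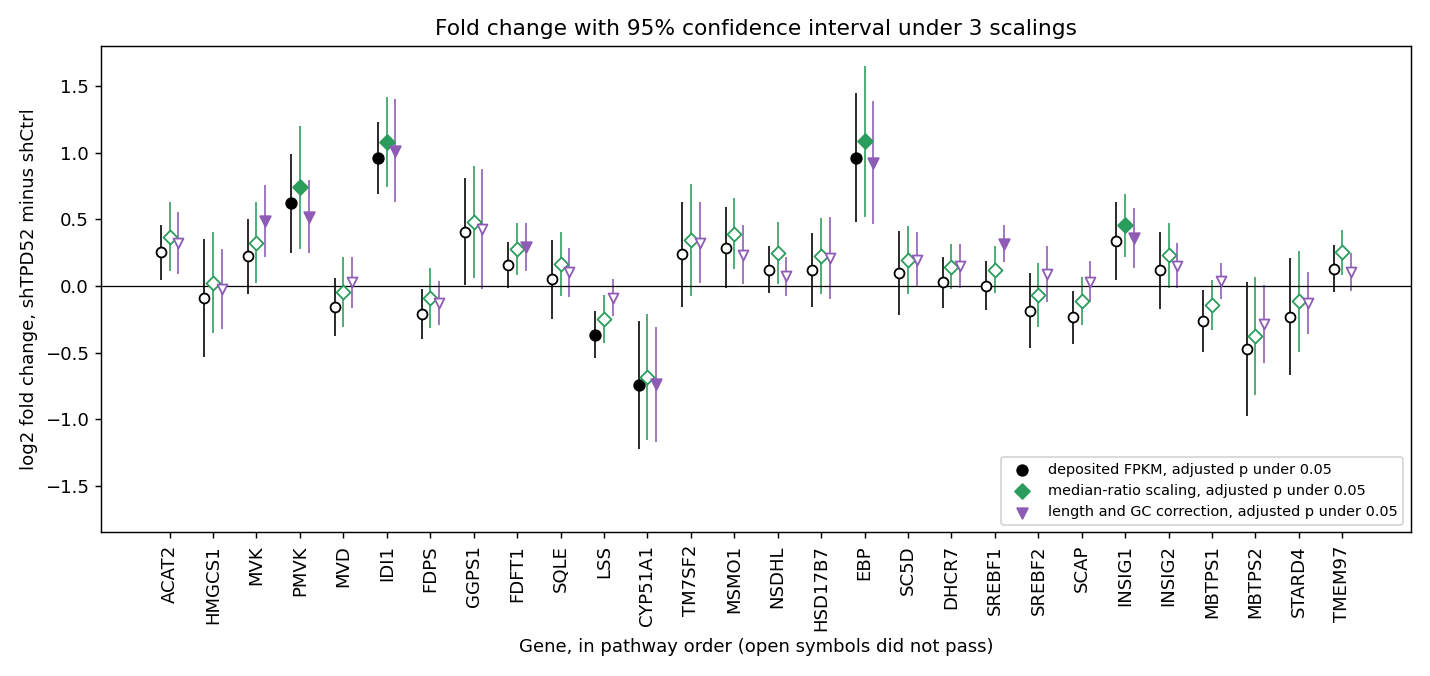
Log2 fold change of shTPD52 minus shCtrl (vertical axis) with its 95% confidence interval from limma (n = 3 per group) for 28 genes in pathway order, with deposited FPKM (black circles), median-ratio scaling (green diamonds) and the length and GC correction (purple triangles), and filled symbols where adjusted p was under 0.05. PMVK, IDI1 and EBP are filled and above 0 under all 3, while LSS is filled with deposited FPKM only.

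One knockdown library stood apart. On the first principal component of all tested genes (61% of the variance), shTPD52 replicate 2 lay at 0.29, with replicates 1 and 3 at 27.3 and 35.3 and the controls from -24.1 to -16.4. It was the knockdown library nearest the control mean for 56.6% of all tested genes and for 42.3% of the tested members. It was the highest of the 3 knockdown libraries for 15 of 28 members, among them HMGCS1, SQLE, MSMO1, SC5D, INSIG1 and STARD4, and for 52.8% of all tested genes. The parts of the set differed, with replicate 2 the highest for all 7 SREBP control genes but for only 5 of 17 tested enzymes. For 9 of these 17 enzymes replicate 3 was the highest, beside 20.7% of all tested genes. Without shTPD52 replicate 2, 4 tested members were higher (ACAT2, PMVK, IDI1 and EBP) and 5 lower (LSS, SREBF2, SCAP, MBTPS1 and MBTPS2), beside 12.6% and 32.9% of all genes. In the added fits CYP51A1 was then lower and GGPS1 higher (adjusted p = 0.0205 and 0.0405 by limma). Leaving out any 1 of the other 5 libraries left 1 or 2 members higher and none lower, in fits that called few genes of any kind. All genes were then called higher and lower at 0.775% and 0.994% without shCtrl replicate 1, 1.40% and 2.12% without shCtrl replicate 2, and 0.376% and 0.305% without shCtrl replicate 3. Without shTPD52 replicate 1 these shares were 0.509% and 0.735%, and without shTPD52 replicate 3 they were 2.52% and 4.50%.

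Genes that work beside the pathway were read in the same fit, where again 5.63% of all genes were called higher and 12.7% lower. Of 16 tested genes of sterol-regulated protein degradation and SREBP handling, 6 were lower, none higher and 10 did not pass, with a median log2 fold change of -0.24. SPRING1, a cofactor of the site-1 protease and SCAP system, was 6.44, 6.13 and 6.47 FPKM in shCtrl and 3.54, 4.37 and 3.21 FPKM in shTPD52. It fell by 0.71 in log2 units (adjusted p = 0.0131 by limma), with the groups well apart. ERLIN1, an endoplasmic reticulum membrane protein, fell by 0.43 (adjusted p = 0.0398 by limma). ERLIN1 did not pass under median-ratio scaling, where only SPRING1 was lower. Correcting for length and GC content left 4 of the list lower. ERLIN2, MARCHF6 and FBXW7, named beyond the rule, were also lower, with the call held in 6 of 15, 6 of 15 and 4 of 14 alternatives. Without shCtrl replicate 1 or 3 or shTPD52 replicate 1 none of the list was lower, without shCtrl replicate 2 or shTPD52 replicate 3 it was 1, and without shTPD52 replicate 2 it was 10, beside 2 higher. Those counts stand beside the shares of all genes given above for the same fits, 32.9% lower and 12.6% higher for the last.

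SREBP targets of fatty acid and phospholipid synthesis moved both ways, 2 higher, 2 lower and 7 not passing of 11. FADS2, a fatty acid desaturase, was 11.9, 11.1 and 12.1 FPKM in shCtrl and 27.5, 22.9 and 25.6 FPKM in shTPD52, and rose by 1.08 in log2 units (adjusted p = 0.0037 by limma). RDH11, a retinol dehydrogenase that SREBPs can induce, rose by 0.56 (adjusted p = 0.0109 by limma). ACLY, which supplies the cytosolic acetyl-CoA at the head of both pathways, fell by 0.53 (adjusted p = 0.0301 by limma), from 35.4 ± 2.02 to 24.6 ± 4.34 FPKM (n = 3 each). ACSS2, another source of acetyl-CoA and named beyond the rule as the fourth of this list, fell by 0.30 (adjusted p = 0.0479 by limma). Its call held in 4 of 15 alternatives and in none that changed the scaling or corrected for length and GC content. SCD and FASN, at 53.5 ± 11.3 and 13.1 ± 1.79 FPKM in shTPD52 against 51.6 ± 4.46 and 16.4 ± 1.53 FPKM in shCtrl, did not pass and were named after their values were seen.

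The branches that leave the mevalonate pathway before squalene had 2 higher, 1 lower and 12 not passing of 15 tested genes. DOLK, dolichol kinase, rose by 0.49 and RABGGTB, the beta subunit of Rab geranylgeranyl transferase, by 0.38 in log2 units (adjusted p = 0.0136 and 0.0256 by limma). RABGGTA, the alpha subunit of the same enzyme, fell by 0.43 (adjusted p = 0.037 by limma), but did not pass under median-ratio scaling. Of 9 electron donors and partners of sterol enzymes, 1 was lower, none higher and 8 did not pass. That gene was FAXDC2, a member of the fatty acid hydroxylase family, which fell by 0.52 (adjusted p = 0.0302 by limma). POR, which passes electrons to CYP51A1 and SQLE, was 63.2 ± 1.37 and 61.9 ± 1.88 FPKM and did not pass, a gene named after its values were seen. Of 8 tested LXR receptor and target genes, 1 was lower and 7 did not pass. NPC1, the lysosomal cholesterol exporter, fell by 0.64 (adjusted p = 0.0208 by limma). Of 15 alternatives the call held in 15 for FADS2, 13 for RDH11, 12 for SPRING1, 11 for DOLK, 9 for RABGGTB and ACLY, 7 for ERLIN1 and 6 for RABGGTA, and of 14 in 8 for FAXDC2 and NPC1.

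**Figure D4:**
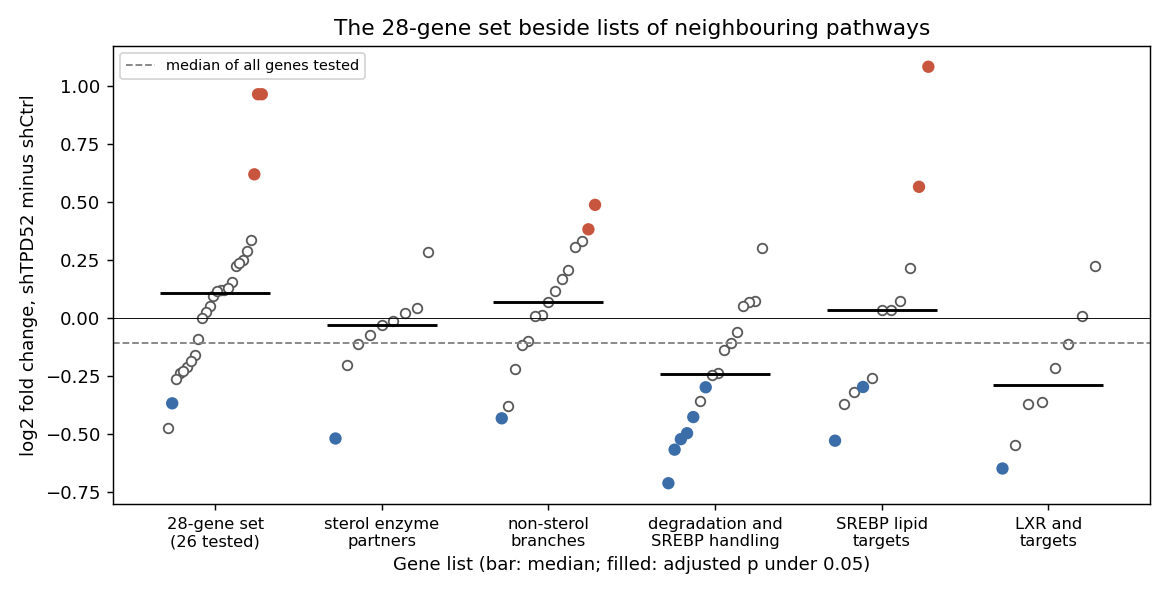
Log2 fold change of shTPD52 minus shCtrl (vertical axis) for each tested gene of the 28-gene set and of 5 neighbouring gene lists (horizontal axis), filled red or blue where called higher or lower, with a bar at each median and a dashed line at the median of all genes tested (-0.11). The 28-gene set has its bar at 0.11 and the list of degradation and SREBP handling genes at -0.24.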

How the data were processed

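The authors deposited 1 table of FPKM values for 6 libraries. HISAT2 2.2.1, featureCounts 2.0.3 and GRCh38 (hg38) are named in the submitters' processing notes, while the sources used here give neither the annotation nor the strandedness. No count table was analysed, so limma 3.58.1 in R 4.3.3 (trend, moderated variances) was run on log2(FPKM + 0.5), for genes averaging at least 1 FPKM, with group as the only term and Benjamini-Hochberg adjustment over all 12782 genes; the script was tested on simulated data. Depth was recovered from FPKM and GENCODE release 29 exon lengths, with which 57.7% to 60.7% of values came out whole within 0.02 reads. Symbols matched 34803 identifiers (99.8%). All 28 members and TPD52 are named, and of each neighbouring list up to 3 called genes with the smallest p, except items that are not reported here. The members and lists were chosen with earlier results of these data known. Alternatives were other pseudocounts, filters and scalings, a loess correction for length and GC content (span 0.3), a replicate block and each library left out.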

Additional observations from a re-analysis of the deposited data

How the results depend on the processing

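The limits are 3 libraries a group, unknown counting settings and reads recovered with an annotation that may not be the one used. With limma at an adjusted p under 0.05, 2341 genes were called in all. The count was 531 with no filter, and 87 (without shCtrl replicate 3) to 5825 (without shTPD52 replicate 2) when 1 library was left out. Tested members called higher, 3 with deposited FPKM, were 1 with no filter (177 genes in all), 6 with quantile normalization (1152) and 7 after correcting length and GC content (1282), and ranged from 1 to 4 with 1 library left out. Members called lower, 1 with deposited FPKM, were 0 with median-ratio scaling (1038 genes in all) and 0 after correcting length and GC content (1324), and ranged from 0 to 5 with 1 library left out. The log2 fold change of TPD52 was -0.65 with no filter (adjusted p = 0.067 by limma) and -0.47 after correcting length and GC content (adjusted p = 0.0822 by limma), and -0.70 to -0.60 with 1 library left out. The causes were not tested.

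Signs turned for 9 members, none of them called with deposited FPKM. HMGCS1 was 0.024 with median-ratio scaling and 0.044 with quantile normalization, and -0.32 to 0.077 with 1 library left out. After correcting length and GC content MVD was 0.027, SREBF2 0.089, SCAP 0.030 and MBTPS1 0.038. With 1 library left out the range was -0.040 to 0.14 for SQLE, -0.029 to 0.20 for SC5D, -0.020 to 0.071 for DHCR7 and -0.039 to 0.031 for SREBF1. Deviations of libraries with the same replicate number correlated at 0.045, 0.248 and 0.022 across genes. Between libraries with different numbers the correlations ran from -0.287 to 0.283. At 3 libraries a group, these values cannot decide whether replicate numbers pair the libraries. With the replicate block 3064 genes were called, and members stayed at 3 higher and 1 lower.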
